A study of Mus musculus with 12 samples.

Results

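Levels of 32 genes for lysosomal enzymes and lysosomal membrane proteins were measured by bulk RNA sequencing of activated CD8+ T cells, the cytotoxic lymphocytes. The genes were picked from a list of symbols drawn up with earlier results of these data known, and all 32 were found among the 55291 gene symbols of the count table. They comprise 8 proteases, 9 glycosidases and sulfatases, 6 genes of lipid handling, 6 membrane proteins, and progranulin with the transcription factors Tfeb and Tfe3. The cells came from lymph node and spleen of Dock8 KO and WT mice, with 3 mice per group in the labels, which name no allele, strain or age. Dock8 encodes a guanine nucleotide exchange factor for Cdc42, through which it acts on the actin cytoskeleton. All cells were activated and expanded for 3 days and then kept for 24 h either in bovine collagen gel at 2 mg/mL or in media. The 4 groups were KO gel, KO media, WT gel and WT media, with 3 libraries each. The gel groups also went through a step of taking the cells out of the collagen.

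Lysosomes are acidic organelles in which hydrolases break down proteins, glycans and lipids that arrive by endocytosis and autophagy. In cytotoxic T cells the lytic granules that hold granzymes and perforin are secretory lysosomes, and they carry the same hydrolases and membrane proteins. Many lysosomal genes share a promoter element, the CLEAR element, built around an E-box that the transcription factors TFEB and TFE3 bind when they enter the nucleus. Both factors are controlled largely through their location in the cell, which the level of their RNA does not show.

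The libraries held 28483064 to 61390702 counts, and the 32 genes together took 0.317 to 0.376% of them. Dock8, the targeted gene, had 168, 161 and 158 CPM (counts per 1000000 of the scaled library total) in KO gel and 126, 109 and 125 CPM in KO media, against 378, 410.5 and 449.6 CPM in WT gel and 362, 418 and 443 CPM in WT media. Dock8 reads therefore remained in KO cells, at 39.3% of the WT level in gel and 29.4% in media. They were higher in KO gel than in KO media (log2 fold change 0.44 ± 0.09 SE; edgeR adjusted p = 0.00425). In WT cells the log2 fold change of gel over media was 0.02. The difference between these 2 responses was not significant (edgeR adjusted p = 0.0854). The 3 KO gel libraries stood apart, with 28362 to 30104 genes detected at a common depth of 28483064 counts, against 24336 to 25142 in the other 9 libraries. Mitochondrial transcripts took 2.27 to 2.61% of counts in KO gel and 1.34 to 2.31% in the others. Libraries KO media 3 and WT gel 2 had 11.8% and 17.8% of their counts on 4 loci that resemble ribosomal RNA, against 3.76 to 9.11% elsewhere, so counts of calls are also given without both. The CD8 T cell markers summed to 2856 to 2915 CPM in KO gel, 2887 to 3042 CPM in KO media, 3061 to 3303 CPM in WT gel and 2934 to 3266 CPM in WT media.

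Markers of macrophages and dendritic cells, which are rich in lysosomes, were low: 15 of 17 lay under 1 CPM in both KO gel and WT gel, and C1qa had no count in any of the 12 libraries. Their sum was 34.8 to 47.4 CPM in KO gel, 37.2 to 49.01 CPM in KO media, 16.2 to 37.1 CPM in WT gel and 14.6 to 36.4 CPM in WT media, most of it from Itgax, an integrin that activated T cells can also express. The mean of 15 of these 17 genes was higher in KO gel than in WT gel. Markers of neutrophils and mast cells summed to 2.61 to 5.62 CPM in KO gel, 1.13 to 3.20 CPM in KO media, 0.831 to 1.19 CPM in WT gel and 0.534 to 1.18 CPM in WT media. Markers of erythroid cells and platelets summed to 11.7 to 27.5 CPM in KO gel, 5.25 to 8.12 CPM in KO media, 3.45 to 6.04 CPM in WT gel and 3.23 to 5.53 CPM in WT media. B cell markers, mostly Ighm, summed to 747 to 821 CPM in KO gel, 737 to 919 CPM in KO media, 900.2 to 1061 CPM in WT gel and 900.5 to 1015 CPM in WT media. Over all 12 libraries, markers of CD4 and regulatory T cells summed to 25.5 to 37.3 CPM, of NK and γδ T cells to 11.6 to 17.7 CPM and of stromal cells, mostly Pecam1, to 110.0 to 147 CPM. In bulk RNA, fewer cells of a type and less RNA per cell cannot be told apart, and the part these cells have in the results below was not tested.

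Per kilobase of annotated exon, the membrane protein Laptm5, which targets the T cell receptor complex for lysosomal degradation, had the highest level of the 32, with a mean of 231 CPM per kilobase over 12 libraries. Psap, the precursor of the saposins that present sphingolipids to their hydrolases, followed at 161 CPM per kilobase. The aspartic protease gene Ctsd and the membrane glycoprotein gene Lamp1 came next, at 65.4 and 65.3 CPM per kilobase, and those neighbours did not differ beyond their spread. Ctsd shares 34.4% of its exon bases with the annotated gene Gm49369 on the same strand, which had 0 counts. How reads from the shared bases were counted was not tested, so the level of Ctsd may be too low. Ctss, a cysteine protease gene known for trimming the invariant chain, reached 53.8 CPM per kilobase, and Npc2, a soluble cholesterol carrier, 48.7 CPM per kilobase. The transcription factor genes stood near the low end, Tfeb at 2.48 and Tfe3 at 2.35 CPM per kilobase, followed by the cysteine protease gene Ctsl at 1.67 CPM per kilobase. The tetraspanin gene Cd63 was lowest at 0.0690 CPM per kilobase, with 0 to 30 counts per library. It was the only one of the 32 with a mean log2 CPM under 3, and all 32 passed the filter on low counts.

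**Figure D1:**
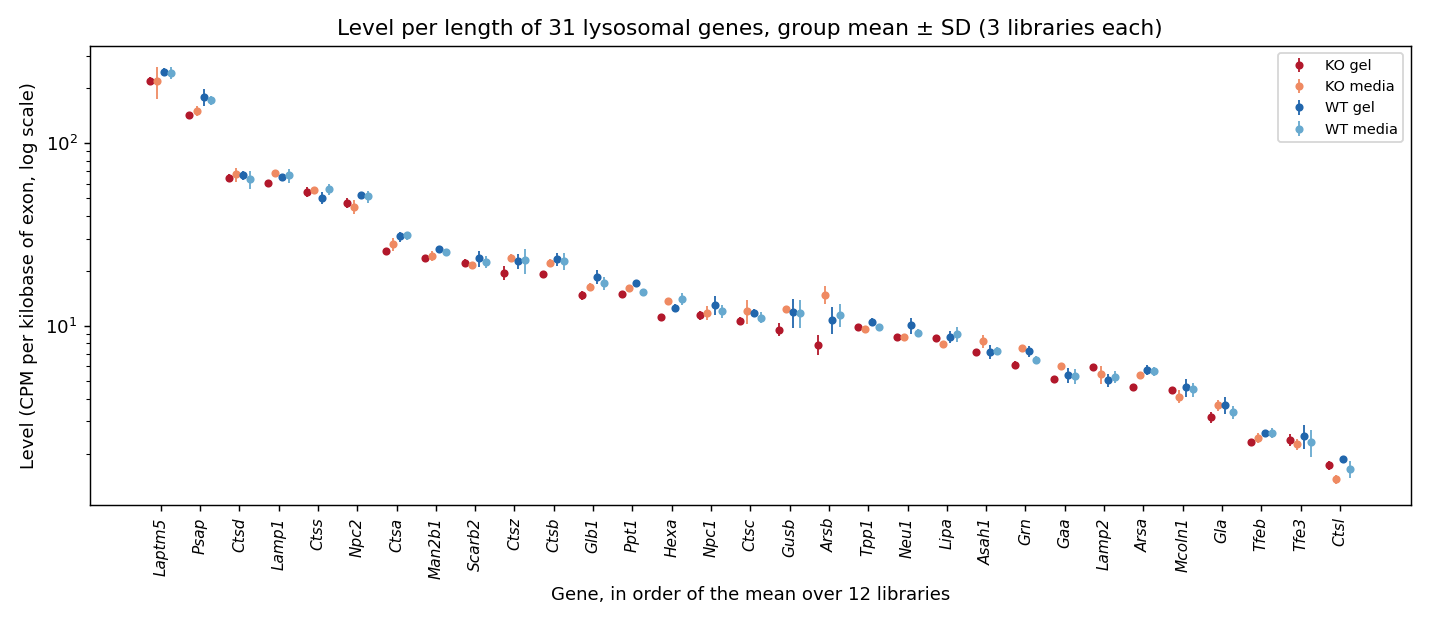
Mean level per group in CPM per kilobase of exon on a log axis, with bars for the SD over 3 libraries, for 31 genes in order of their mean over 12 libraries. Laptm5 and Psap lead and Ctsl is lowest of those plotted; Cd63, with 0 counts in 1 library, is left out. The 4 groups lie close together for most genes, and Arsb shows the widest gap between groups.

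Variation over the 12 libraries was small for most of these genes. The coefficient of variation of the CPM was 4.56% for Tpp1, the tripeptidyl peptidase, 15.2% for Gusb, the β-glucuronidase, and 25.6% for Arsb, arylsulfatase B, which removes sulfate from dermatan and chondroitin sulfate. Cd63, at its low counts, varied by 79.7%. Summed over the 32 genes, the level was 3191 to 3317 CPM in KO gel, 3126 to 3608 CPM in KO media, 3589 to 3756 CPM in WT gel and 3388 to 3676 CPM in WT media. KO gel and WT gel did not overlap in this TMM-scaled sum, and KO gel lay within the range of KO media. As a share of unscaled counts KO gel and WT gel overlapped, at 0.325 to 0.347% in KO gel and 0.317 to 0.376% in WT gel.

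Promoter windows, from 250 bases before to 50 after the annotated start, were read from RefSeq for the mouse build GRCm38.p6 and matched 29 of the 32 genes. The E-box core CACGTG, which reads the same on both strands, occurred in at least 1 window of 9 of these 29 genes (31%), against 8.09% of 27025 genes with a window. The longer form TCACGTG, which holds the core and the 5′ T of the CLEAR element and was searched on both strands, occurred in 8 of the 29 genes (27.6%), against 4.29% of all genes. Further lists of lysosomal, nutrient-sensing and autophagy genes, read below, had 101 genes with a window. Of these, 26 (25.7%) held the core and 23 (22.8%) the longer form. The 9 genes were Lamp1, Ctsa, Ctsd, Mcoln1, Gla, Glb1, Arsa, Gaa and Ctsl, of which Ctsl held the core without the T. A match is a run of letters, not evidence of binding. The windows of Lamp1, with the most cores, and of Ctsa, Glb1 and Arsa, which were lower in KO gel than in WT gel, are printed 5′ to 3′ with the core and any adjoining T or A of TCACGTG on either strand in capitals. Arsb, the gene with the largest fold change in KO gel against KO media among those called, is printed beside them and holds no match in its window.
Lamp1 promoter, chr8:13158911-13159210, plus strand: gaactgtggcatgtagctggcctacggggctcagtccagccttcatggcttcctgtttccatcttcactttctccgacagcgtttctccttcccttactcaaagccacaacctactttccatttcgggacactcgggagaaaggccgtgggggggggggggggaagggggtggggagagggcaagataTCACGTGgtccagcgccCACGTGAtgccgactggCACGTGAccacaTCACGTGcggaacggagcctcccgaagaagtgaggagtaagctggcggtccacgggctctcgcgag
Ctsa promoter, chr2:164833523-164833822, plus strand: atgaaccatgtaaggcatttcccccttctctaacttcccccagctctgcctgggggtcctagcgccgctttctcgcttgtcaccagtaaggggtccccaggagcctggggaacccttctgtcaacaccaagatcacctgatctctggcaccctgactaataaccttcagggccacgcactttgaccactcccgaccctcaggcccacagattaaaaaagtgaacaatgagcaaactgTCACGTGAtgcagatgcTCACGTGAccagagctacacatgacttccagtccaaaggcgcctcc
Glb1 promoter, chr9:114400828-114401127, plus strand: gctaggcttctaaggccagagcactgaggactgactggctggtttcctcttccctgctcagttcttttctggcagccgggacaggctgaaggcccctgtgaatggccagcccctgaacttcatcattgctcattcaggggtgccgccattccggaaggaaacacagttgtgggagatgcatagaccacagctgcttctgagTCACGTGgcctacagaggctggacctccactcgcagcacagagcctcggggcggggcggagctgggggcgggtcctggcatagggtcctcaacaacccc
Arsa promoter, chr15:89477375-89477674, minus strand: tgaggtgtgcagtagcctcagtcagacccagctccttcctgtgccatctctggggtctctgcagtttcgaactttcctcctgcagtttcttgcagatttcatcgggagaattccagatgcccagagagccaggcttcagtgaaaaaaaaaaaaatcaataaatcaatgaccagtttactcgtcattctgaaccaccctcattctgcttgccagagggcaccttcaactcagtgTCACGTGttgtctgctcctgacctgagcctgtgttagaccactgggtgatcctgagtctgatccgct
Arsb promoter, chr13:93771429-93771728, plus strand: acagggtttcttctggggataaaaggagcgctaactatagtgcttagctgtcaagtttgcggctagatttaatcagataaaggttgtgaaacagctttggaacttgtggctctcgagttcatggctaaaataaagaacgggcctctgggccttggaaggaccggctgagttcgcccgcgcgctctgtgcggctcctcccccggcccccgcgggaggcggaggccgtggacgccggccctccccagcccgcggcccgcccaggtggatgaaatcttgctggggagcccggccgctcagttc
In the Lamp1 window 4 cores stood within 61 bases upstream of the start, at offsets -61, -45, -28 and -15. In the Ctsa window, which belongs to one of the gene's 2 annotated starts, the cores began at offsets -12 and 5. Those of Glb1 and Arsa began at offsets -48 and -16.

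**Figure D2:**
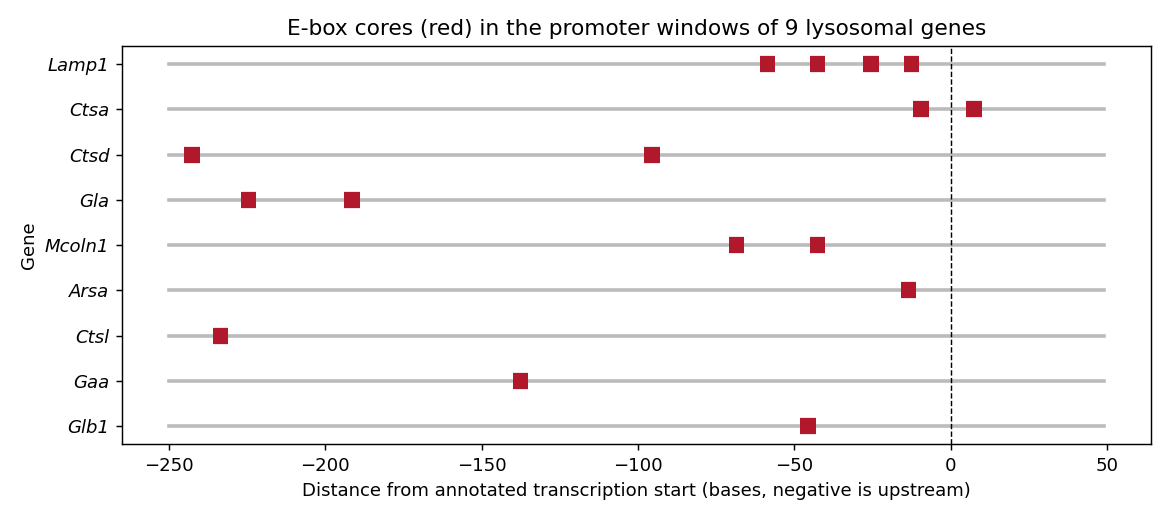
Positions of the E-box core (red blocks) in the promoter windows of 9 lysosomal genes, with distance from the annotated start in bases on the horizontal axis and 1 gene per row. Lamp1 holds 4 cores, Ctsa, Ctsd, Gla and Mcoln1 hold 2 each, and Arsa, Ctsl, Gaa and Glb1 hold 1 each; in Lamp1, Arsa and Ctsa the cores lie close to the start.

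The response of KO cells to collagen was asked by comparing KO gel with KO media. Arsb, Hexa and Grn fell, and none of the 32 genes rose. Arsb fell to 53.4% of its KO media level, and Hexa and Grn to 81.3% and 81.4%. A call here and below is an adjusted p under 0.05 in edgeR's quasi-likelihood test, adjusted by Benjamini and Hochberg over the 19010 genes tested. The 3 calls were 9.38% of the 32 genes, and 9.74% of all genes tested, or 16.8% of those averaging a log2 CPM of 3 or more, were called lower in the same comparison, and 11.1% and 6.42% were called higher. The share of lysosomal genes called lower was thus near or below the background.

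Arsb (chromosome 13, 93771630 to 93943016, plus strand, GRCm38) had 40.9, 51.4 and 50.7 CPM in KO gel, against 88.2, 79.7 and 99.7 CPM in KO media. In the WT groups it had 73.4, 69.3 and 52.9 CPM in gel and 78.3, 71.2 and 59.0 CPM in media. The KO gel libraries were the 3 lowest of all 12, and the KO media libraries the 3 highest. The log2 fold change of Arsb in KO gel over KO media was -0.90 ± 0.14 (SE, n = 3 and 3; edgeR adjusted p = 0.00066). An annotated long noncoding RNA on the opposite strand, not counted in the table, overlaps 32.3% of the Arsb exon bases, and without a stated strand setting its reads cannot be told apart from those of Arsb.

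Hexa (chromosome 9, 59539540 to 59565109, plus strand) encodes the α subunit of the β-hexosaminidase that degrades gangliosides. It had 22.2, 22.0 and 22.3 CPM in KO gel, against 27.4, 27.3 and 27.1 CPM in KO media, so the groups did not overlap. Its log2 fold change was -0.30 ± 0.07 (SE; edgeR adjusted p = 0.00853). Grn (chromosome 11, 102430315 to 102437048, plus strand) encodes progranulin, a secreted and lysosomal precursor of the granulins. It had 20.4, 20.7 and 22.6 CPM in KO gel, against 26.2, 25.8 and 26.4 CPM in KO media. All KO gel values again lay below all KO media values, with a log2 fold change of -0.30 ± 0.07 (SE; edgeR adjusted p = 0.0113). Grn missed the threshold where libraries were scaled to total counts (edgeR adjusted p = 0.0503), whereas Arsb and Hexa passed it under each of the 21 alternatives run.

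By role, the glycosidases and sulfatases held 2 of the 3 calls, Arsb and Hexa, and all 9 had negative log2 fold changes, between -0.90 and -0.0038. Negative too were 9649 of all 19010 genes tested and 6479 of the 9959 averaging a log2 CPM of 3 or more. Gaa, the acid α-glucosidase, Gusb and Arsa, arylsulfatase A, which degrades sulfatide, came next, with edgeR adjusted p of 0.0562, 0.0573 and 0.0589. None of the 8 proteases was called in this edgeR fit, at log2 fold changes from -0.27 for Ctsz to 0.25 for Ctsl. The unadjusted p was under 0.05 for 3 of them. The same held for 6982 of all 19010 genes tested and 4054 of the 9959 averaging a log2 CPM of 3 or more. None of the 6 genes of lipid handling and none of the 6 membrane protein genes was called in this edgeR fit, with 1 gene each at an unadjusted p under 0.05. Limma-voom called none of these 20 genes either, and DESeq2 called Lamp1. Lamp1 had 161, 161 and 165 CPM in KO gel, against 184, 190.2 and 179 CPM in KO media, a log2 difference of -0.19 ± 0.07 (SE; edgeR adjusted p = 0.0669). Ctsd had 148, 147 and 160.3 CPM in KO gel and 171, 144 and 160.0 CPM in KO media, which overlapped (log2 fold change -0.06 ± 0.09; edgeR adjusted p = 0.652). Tfeb had 12.7, 13.3 and 13.2 CPM in KO gel and 14.7, 13.6 and 13.1 CPM in KO media (log2 fold change -0.08 ± 0.08; edgeR adjusted p = 0.484). Tfe3 had 20.003, 22.6 and 23.2 CPM in KO gel and 21.4, 19.0 and 21.8 CPM in KO media (log2 fold change 0.08 ± 0.12; edgeR adjusted p = 0.673).

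The median log2 fold change of the 32 genes was -0.08 in KO gel over KO media, against -0.01 over all genes tested and -0.08 over those averaging a log2 CPM of 3 or more. Of the 32 genes, 13 (40.6%) had all KO gel libraries below all KO media libraries, against 23.9% of all genes and 37.2% of the higher-expressed genes, and 2 (6.25%), Ctsl and Lipa, had them all above, against 23.5% and 15.7%. Without both libraries rich in loci like ribosomal RNA the count of calls was again 0 higher and 3 lower. It was 5 in DESeq2, 9 with no filter beyond 1 count, 11 with only the KO gel and KO media libraries in the fit, and 10, 6, 5 and 8 without WT media 1, WT media 3, WT gel 1 and WT gel 3, libraries that are in neither of the groups compared but enter the shared estimate of spread and the scaling. Without WT gel 3, for example, the log2 fold change of Hexa was -0.32 and that of Lamp1 -0.20. The share of all genes called in these fits is not given here, so their counts cannot be compared with the shares from the main fit. The calls in these fits were lower, except for Ctsl. It was called higher with only the KO gel and KO media libraries (log2 fold change 0.26) and without WT media 1 (0.25). With only genes averaging a log2 CPM of 3 or more, 1 gene, Ctsl, was called higher (0.33; edgeR adjusted p = 0.0185) and 3 were called lower.

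**Figure D3:**
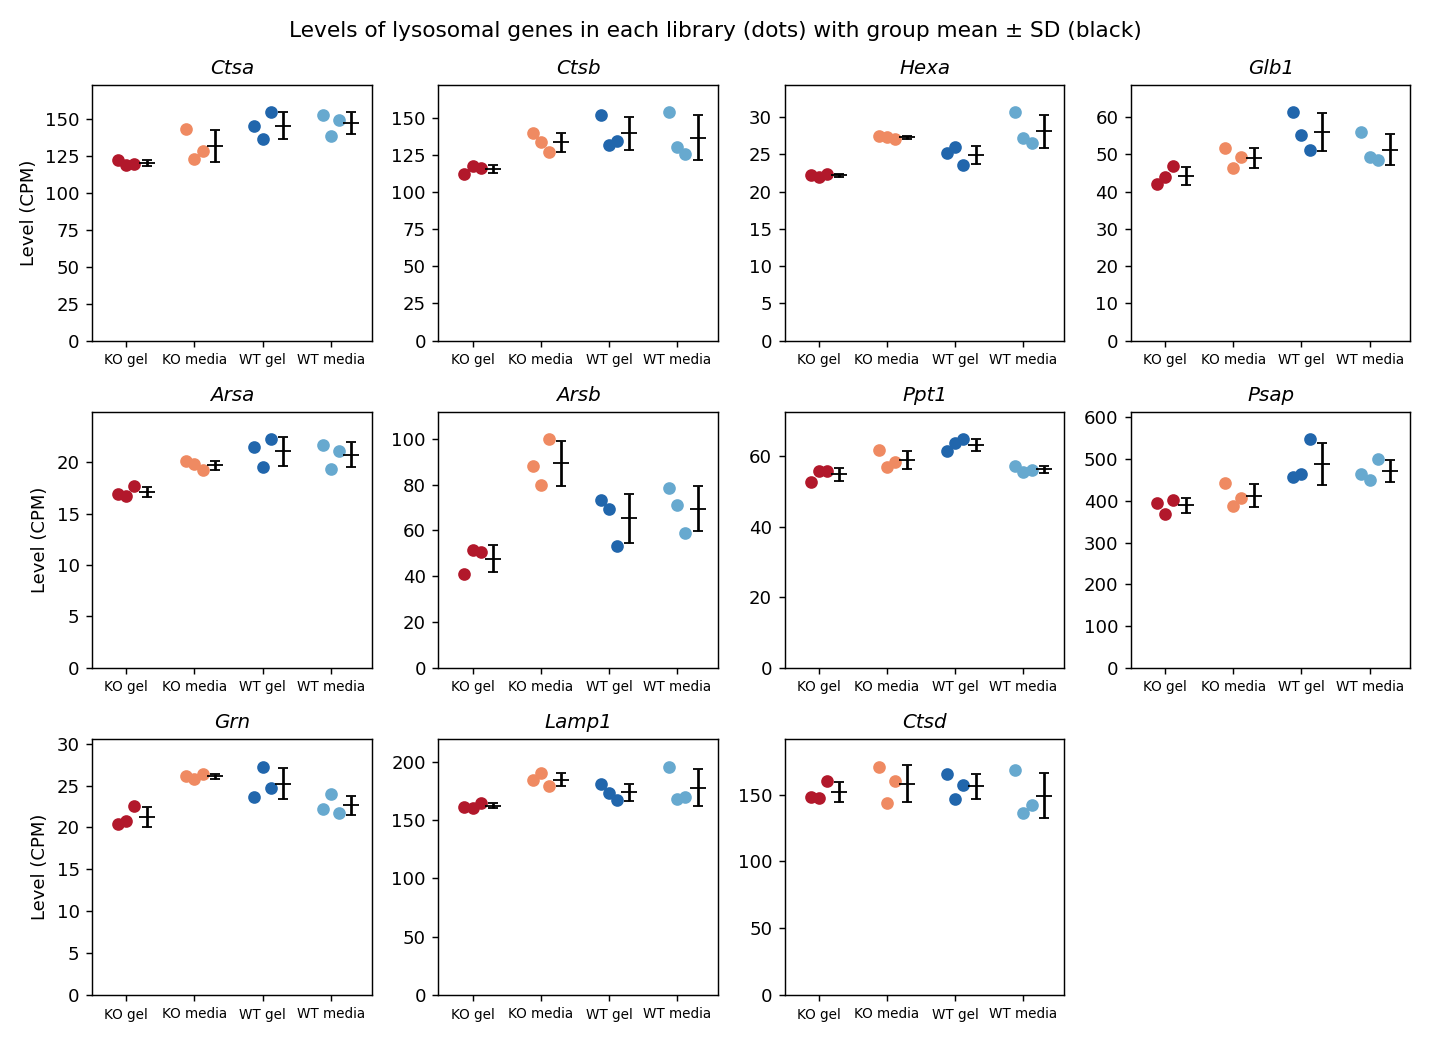
Level in CPM of each library (dots) with the group mean and SD over 3 libraries (black), groups from left to right KO gel, KO media, WT gel and WT media, for 9 lysosomal genes called in at least 1 comparison and for Lamp1 and Ctsd. The KO gel dots of Arsb, Hexa and Grn lie below all their KO media dots, and those of Ctsa, Ctsb, Glb1, Arsa, Arsb, Ppt1, Psap and Grn below all their WT gel dots; Ctsd shows overlapping groups.

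WT cells served to show the response to collagen with Dock8 present. Comparing WT gel with WT media, none of the 32 genes was called, and 7 of all 19010 genes tested were (0.0368%; 0.0402% of those averaging a log2 CPM of 3 or more). This count was 0 in edgeR, in DESeq2, in limma-voom and under all 21 alternatives. In edgeR 1033 of all 19010 genes tested had an unadjusted p under 0.05, and 2 of the 32 genes did. These were Ppt1, a thioesterase that removes palmitate from proteins, and Hexa, and the third smallest p belonged to Ctss. Ppt1 had 61.4, 63.7 and 64.8 CPM in WT gel, against 57.3, 55.5 and 56.2 CPM in WT media (log2 fold change 0.17 ± 0.06; edgeR adjusted p = 0.812). Its gel libraries were all above its media libraries. Hexa had 25.1, 26.0 and 23.6 CPM in WT gel, against 30.6, 27.1 and 26.5 CPM in WT media (log2 fold change -0.17 ± 0.07; edgeR adjusted p = 0.892). For Ctss the values were 63.4, 67.8 and 73.4 CPM in WT gel and 74.5, 71.6 and 81.6 CPM in WT media (log2 fold change -0.15 ± 0.07; edgeR adjusted p = 0.901). Lamp1 had 181, 173 and 167 CPM in WT gel and 196, 168 and 169.6 CPM in WT media, and Ctsd 165, 147 and 157 CPM in WT gel and 168, 136 and 143 CPM in WT media, with overlap in both. Tfeb had 15.1, 14.2 and 14.8 CPM in WT gel and 15.3, 13.6 and 15.1 CPM in WT media, and Tfe3 21.3, 20.7 and 27.2 CPM in WT gel and 18.1, 20.9 and 25.3 CPM in WT media. The median log2 fold change of the 32 genes was 0.03.

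**Figure D4:**
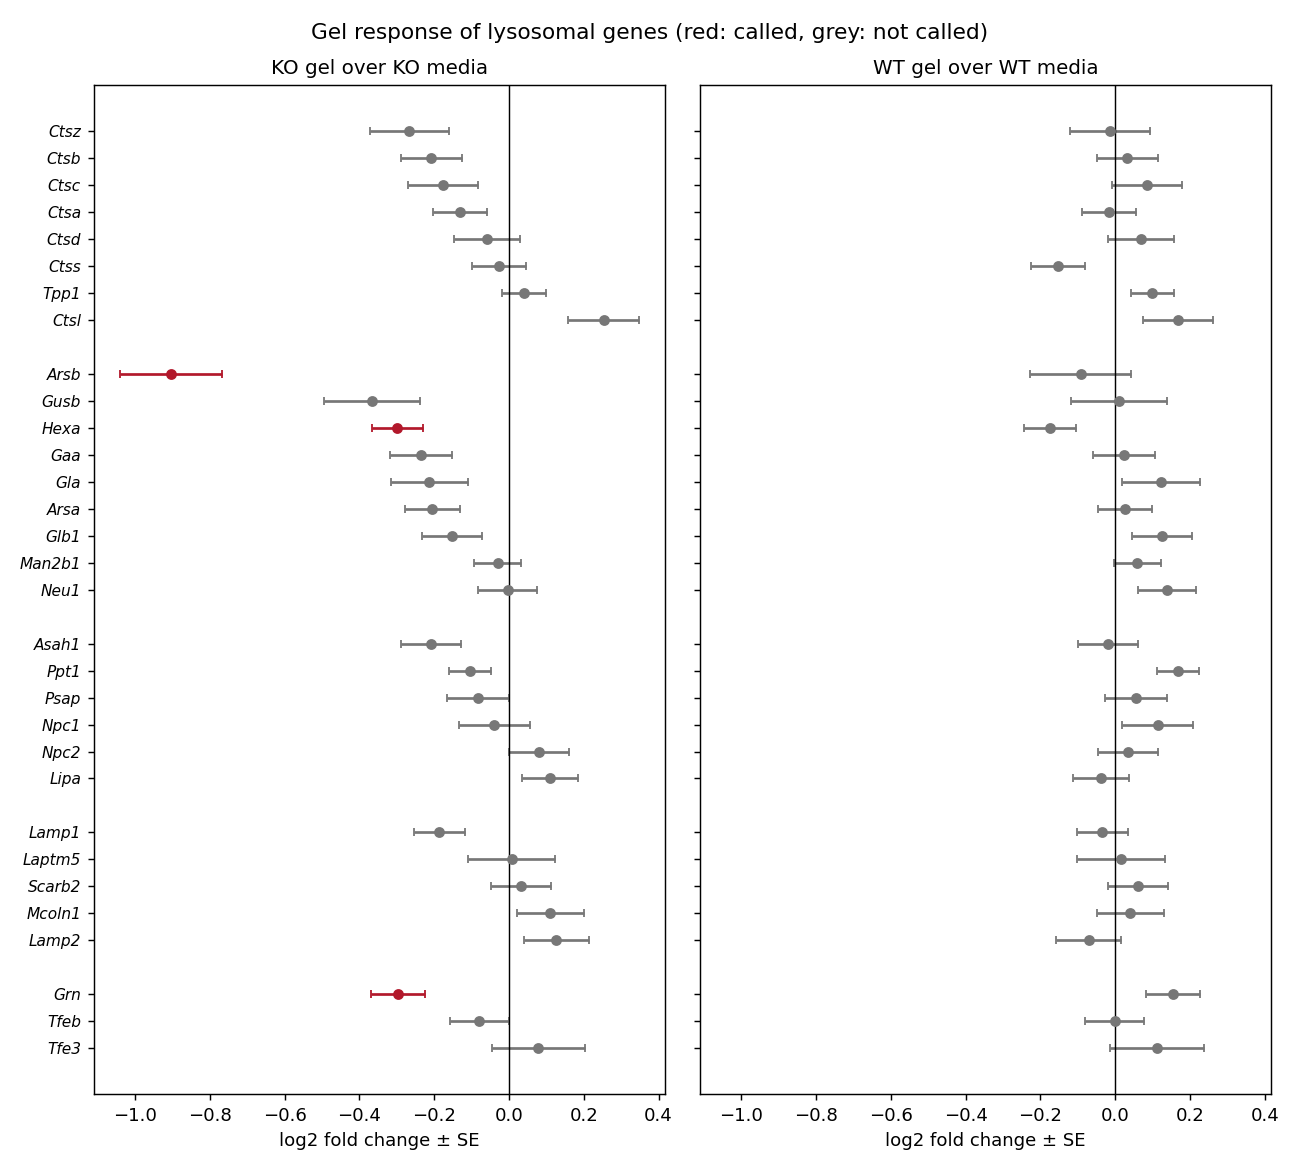
Log2 fold change with SE (bars) of 31 lysosomal genes, KO gel over KO media on the left and WT gel over WT media on the right, grouped from top to bottom into proteases, glycosidases and sulfatases, lipid handling, membrane proteins, and progranulin with Tfeb and Tfe3. Red marks genes called at an edgeR adjusted p under 0.05; Arsb at -0.90, Hexa at -0.30 and Grn at -0.30 are red in KO cells, and no gene is red in WT cells. Cd63 is left out for its low counts.

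Whether the gel response differed between KO and WT cells was tested directly, as the interaction of genotype and culture. It was called for Grn and Arsb, in both cases with the lower response in KO cells, and 1.45% of all genes tested were called in that direction (2.66% of those averaging a log2 CPM of 3 or more), against 6.25% of the 32. For Grn the gel response was -0.30 in KO cells and 0.15 in WT cells on the log2 scale, a difference of -0.45 ± 0.10 (SE; edgeR adjusted p = 0.031). For Arsb it was -0.90 in KO cells and -0.09 in WT cells, a difference of -0.81 ± 0.19 (SE; edgeR adjusted p = 0.0365). Hexa, called in KO cells alone, had a difference of -0.12 ± 0.10 (edgeR adjusted p = 0.511), so its responses were not shown to differ. The difference was -0.15 ± 0.10 for Lamp1 (edgeR adjusted p = 0.411), -0.13 ± 0.12 for Ctsd (edgeR adjusted p = 0.602), -0.08 ± 0.11 for Tfeb (edgeR adjusted p = 0.733) and -0.03 ± 0.18 for Tfe3 (edgeR adjusted p = 0.940). The median over the 32 genes was -0.13, against 0 over all genes tested and -0.07 over the higher-expressed ones. Neither interaction was called with total-count scaling or without the libraries rich in loci like ribosomal RNA, and leaving out single libraries gave 0 to 4 calls: 0 without WT media 2, WT media 3, KO media 1, KO media 3, WT gel 2, KO gel 1 or KO gel 2, 1 without WT gel 1 or KO gel 3, and 4 without WT media 1.

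Between genotypes in gel, 8 of the 32 genes were lower in KO gel than in WT gel and 1 was higher. The 8 were Glb1, Arsa, Psap, Ctsa, Ppt1, Grn, Ctsb and Arsb, at 73.1 to 86.8% of their WT gel level, and the 1 was Cd63. They made up 25.0% of the 32, where 7.71% of all genes tested, and 13.3% of those averaging a log2 CPM of 3 or more, were called lower. Called higher were 3.12% of the 32, 7.12% of all genes tested and 4.03% of the higher-expressed ones. This comparison shares the KO gel libraries with that of KO gel and KO media, so the calls of both rest in part on the same values.

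Glb1 (chromosome 9, 114401076 to 114474898, plus strand) encodes β-galactosidase. It had 42.0, 43.8 and 46.8 CPM in KO gel, against 61.3, 55.3 and 51.3 CPM in WT gel, with no overlap and a log2 fold change of -0.34 ± 0.08 (SE; edgeR adjusted p = 0.0125). Ctsa (chromosome 2, 164832873 to 164841032, plus strand) encodes the carboxypeptidase that protects β-galactosidase and neuraminidase in the lysosome. It had 123, 119 and 119.5 CPM in KO gel, against 145, 136 and 155 CPM in WT gel, a log2 fold change of -0.27 ± 0.07 (SE; edgeR adjusted p = 0.0205). All 3 KO gel values lay below the lowest WT gel value. Ctsa exons overlap those of Pltp on the opposite strand over 10.5% of their bases, and Pltp was also lower in KO gel than in WT gel (log2 fold change -0.43; edgeR adjusted p = 0.0495). Neu1, the neuraminidase gene of the same complex, was not called (log2 fold change -0.22; edgeR adjusted p = 0.0775). Arsa (chromosome 15, 89472476 to 89477425, minus strand) had 16.9, 16.8 and 17.7 CPM in KO gel, against 21.5, 19.5 and 22.2 CPM in WT gel (log2 fold change -0.30 ± 0.07; edgeR adjusted p = 0.0135). Its groups did not overlap. Arsa exons overlap those of C230037L18Rik on the opposite strand over 18.8% of their bases, and C230037L18Rik was not called (log2 fold change 0.13; edgeR adjusted p = 0.752).

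Among genes of lipid handling, Psap (chromosome 10, 60277627 to 60302597, plus strand) had 396, 369.5 and 403 CPM in KO gel, against 456, 464 and 547 CPM in WT gel. The groups were apart, and the log2 fold change was -0.33 ± 0.08 (SE; edgeR adjusted p = 0.0169). Ppt1 (chromosome 4, 122836242 to 122859175, plus strand) had 52.8, 56.0 and 55.9 CPM in KO gel, against 61.4, 63.7 and 64.8 CPM in WT gel (log2 fold change -0.20 ± 0.06; edgeR adjusted p = 0.0268). The KO gel values of Ppt1 were close to its WT media values of 57.3, 55.5 and 56.2 CPM. All 6 genes of this group had negative log2 fold changes, down to -0.33, and 2 were called. In this comparison 9515 of all 19010 genes tested were negative, and 6449 of the 9959 averaging a log2 CPM of 3 or more.

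Ctsb (chromosome 14, 63122462 to 63145923, plus strand), a cysteine protease gene, had 113, 118 and 117 CPM in KO gel, against 152, 132 and 135 CPM in WT gel (log2 fold change -0.27 ± 0.08; edgeR adjusted p = 0.0381). Its exons overlap those of Fdft1 on the opposite strand over 12.8% of their bases, and Fdft1 was itself lower in KO gel than in WT gel (log2 fold change -0.35; edgeR adjusted p = 0.0248). Grn had 20.4, 20.7 and 22.6 CPM in KO gel, against 23.6, 27.3 and 24.8 CPM in WT gel (log2 fold change -0.25 ± 0.07; edgeR adjusted p = 0.0366). Arsb had 40.9, 51.4 and 50.7 CPM in KO gel, against 73.4, 69.3 and 52.9 CPM in WT gel, where the highest KO gel value and the lowest WT gel value nearly met (log2 fold change -0.45 ± 0.14; edgeR adjusted p = 0.0405). Of 21 alternatives, the call was lost under 11 for Arsb, 9 for Ppt1, 8 each for Grn and Ctsb, 5 for Ctsa, 4 for Glb1, 3 for Psap and 2 for Arsa.

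Cd63 rests on few reads, with 11, 30 and 12 counts in KO gel against 5, 0 and 4 in WT gel. Its level was 0.290, 0.749 and 0.299 CPM in KO gel, against 0.138, 0 and 0.101 CPM in WT gel, and the log2 fold change was 2.30 ± 0.68 (SE; edgeR adjusted p = 0.0355). The call was lost under 5 of 20 alternatives. The means of 7 of 8 markers of erythroid cells and platelets and of 6 of 8 markers of neutrophils and mast cells, cells known to carry Cd63, were also higher in KO gel than in WT gel. Itga2b, for example, averaged 9.54 CPM in KO gel and 2.90 CPM in WT gel, and the mast cell gene Cpa3 2.67 CPM and 0.982 CPM, whereas the neutrophil genes S100a8 and S100a9 had no count in KO gel. Means were also higher for 15 of 17 markers of macrophages and dendritic cells, 4 of 7 of B cells and 3 of 4 of CD4 and regulatory T cells. They were higher for 3 of 7 of stromal cells, 1 of 5 of NK and γδ T cells and 1 of 8 of CD8 T cells. Of the 1354 genes called higher in this comparison, 401 averaged a log2 CPM of 3 or more, and Cd63 lay under that level. Of the 1465 called lower, 1325 did. The part of these cells in the Cd63 result was not tested.

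Lamp1 had 161, 161 and 165 CPM in KO gel and 181, 173 and 167 CPM in WT gel, without overlap but without a call (log2 fold change -0.10 ± 0.07; edgeR adjusted p = 0.354), and Ctsd overlapped (log2 fold change -0.04 ± 0.09; edgeR adjusted p = 0.795). Lamp2, the membrane protein needed for chaperone-mediated autophagy, had the highest KO gel values relative to WT gel apart from Cd63, with 58.2, 54.5 and 57.1 CPM in KO gel, against 43.5, 51.3 and 49.04 CPM in WT gel. Its groups did not overlap, but the test missed the threshold (log2 fold change 0.24 ± 0.09; edgeR adjusted p = 0.0811). Tfeb had 12.7, 13.3 and 13.2 CPM in KO gel, against 15.1, 14.2 and 14.8 CPM in WT gel. Those groups were also apart, without a call (log2 fold change -0.17 ± 0.08; edgeR adjusted p = 0.174). Tfe3 did not separate the groups (log2 fold change -0.08 ± 0.13; edgeR adjusted p = 0.728).

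By role, 3 of 9 glycosidases and sulfatases, 2 of 8 proteases, 2 of 6 genes of lipid handling and 1 of the 3 genes progranulin, Tfeb and Tfe3 were lower in KO gel than in WT gel, and 1 of 6 membrane protein genes was higher. With total-count scaling these lower calls were 0 and Lamp2 and Cd63 were the only 2 calls, both higher. That scaling moved the median log2 fold change of all genes tested to 0.10, against -0.0003 with trimmed means of M values (TMM). The median of the 32 genes was -0.05 with total counts and -0.16 with TMM, which is 0.154 and 0.156 below that of all genes. A change of scaling moves all genes by nearly the same amount, so these distances had to be alike. Their likeness does not show that the calls hold under both scalings. With TMM the median of the genes averaging a log2 CPM of 3 or more, which include 31 of the 32, was -0.07, and that of the 32 lay 0.0857 below it. Of the 32 genes, 16 (50%) had all KO gel libraries below all WT gel libraries, against 19.9% of all genes and 31.6% of the higher-expressed ones, and 2, Cd63 and Lamp2, had them all above (6.25%), against 18.3% and 12.1%. Without both libraries rich in loci like ribosomal RNA, 3 calls were made, Ctsa, Arsa and Psap, all lower, and the median was again -0.16. Leaving out KO gel 2 gave 1 call, KO gel 1 gave 4, and KO gel 3, WT gel 1 or WT gel 2 gave 5 each.

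**Figure D5:**
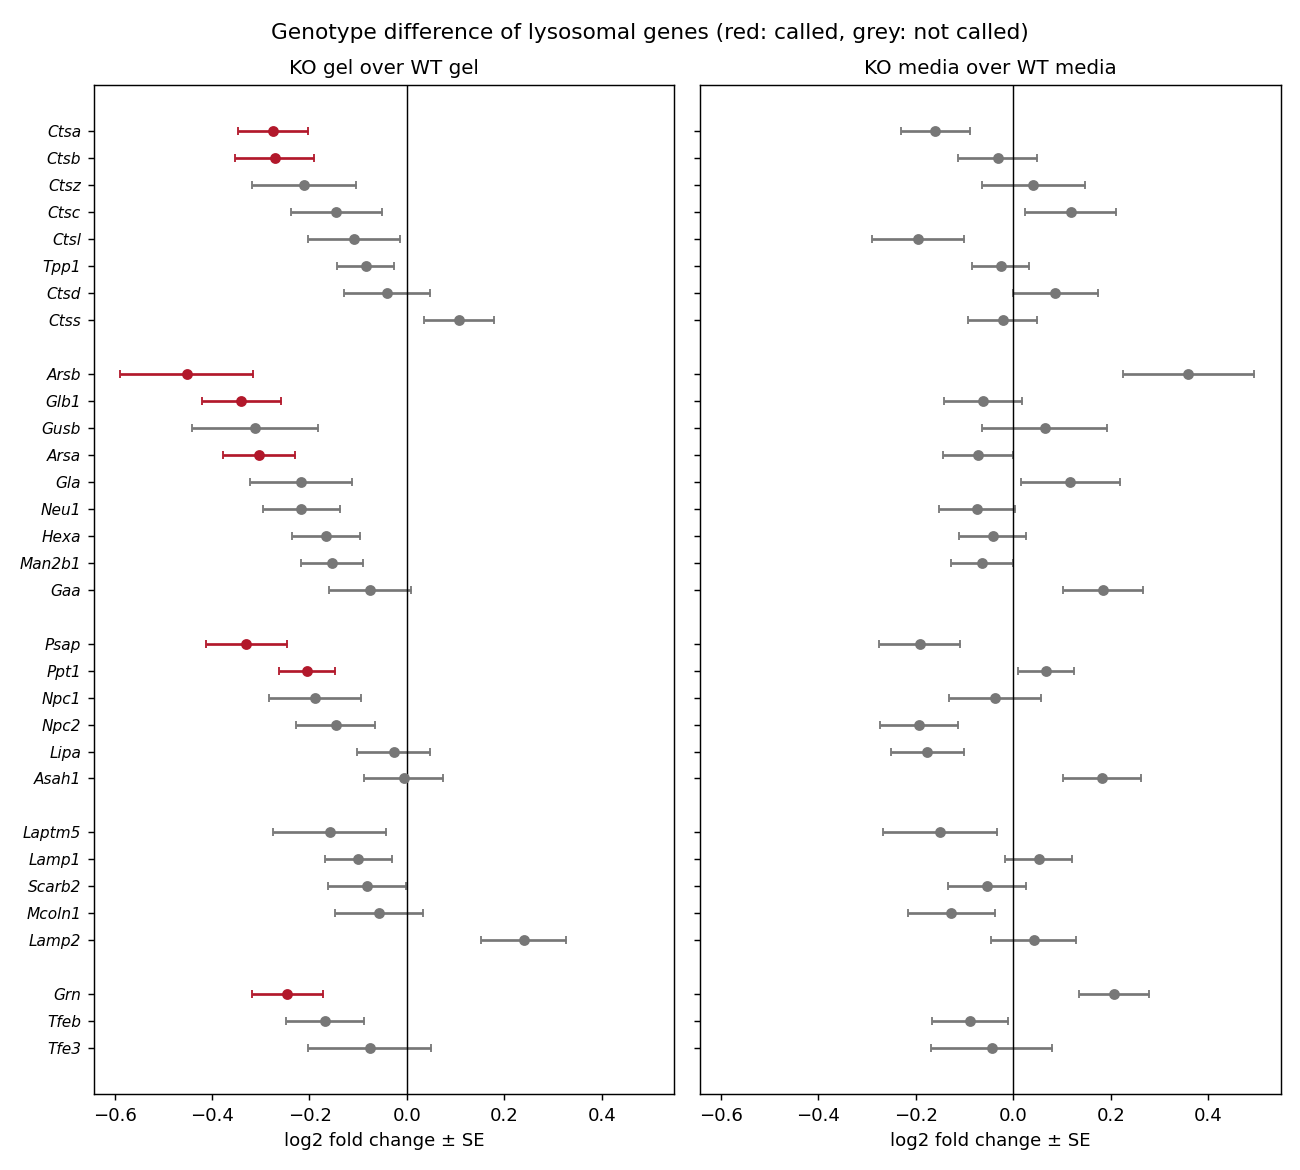
Log2 fold change with SE (bars) of 31 lysosomal genes, KO gel over WT gel on the left and KO media over WT media on the right, in the same groups of genes from top to bottom as in the plot of gel responses. Red marks genes called at an edgeR adjusted p under 0.05; on the left 8 genes are red, all below 0, and on the right none is. Cd63 is left out for its low counts.

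In media, where the comparison of KO with WT shows the genotype without collagen, none of the 32 genes was called, and 0.189% of all genes tested were (0.201% of those averaging a log2 CPM of 3 or more). The count was 0 in edgeR, DESeq2 and limma-voom, and 1 with no filter on low counts, Arsb. In edgeR 8 of the 32 genes had an unadjusted p under 0.05. Among all 19010 genes tested 1423 did, and among the 9959 higher-expressed ones 748 did. The smallest p belonged to Grn, with 26.2, 25.8 and 26.4 CPM in KO media, against 22.2, 23.9 and 21.8 CPM in WT media (log2 fold change 0.21 ± 0.07; edgeR adjusted p = 0.545). Arsb had 88.2, 79.7 and 99.7 CPM in KO media, against 78.3, 71.2 and 59.0 CPM in WT media (log2 fold change 0.36 ± 0.13; edgeR adjusted p = 0.590). For both genes the KO media libraries were all above the WT media libraries, whereas their KO gel libraries were all below the WT gel libraries. Gaa and Asah1 also had all KO media libraries above, so that 4 of the 32 genes (12.5%) did, against 4.88% of all genes and 4.85% of the higher-expressed ones. Lipa and Psap (6.25%) had all KO media libraries below the WT media libraries, against 5.83% and 5.35%. Npc2 had 267, 229.7 and 231 CPM in KO media and 301, 259 and 272 CPM in WT media (log2 fold change -0.19 ± 0.08; edgeR adjusted p = 0.614), with overlap. The log2 fold change was 0.05 ± 0.07 for Lamp1 (edgeR adjusted p = 0.882), 0.09 ± 0.09 for Ctsd (edgeR adjusted p = 0.838), -0.09 ± 0.08 for Tfeb (edgeR adjusted p = 0.814) and -0.04 ± 0.12 for Tfe3 (edgeR adjusted p = 0.949). The median of the 32 genes was -0.03.

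Other genes of the lysosome, in lists that do not overlap the 32, were read from the same fit. Of 32 further hydrolases and activators, 4 rose and 7 fell in KO gel against KO media, and 2 were higher and 9 lower in KO gel than in WT gel. Those were 12.5% higher and 21.9% lower in KO gel against KO media, where 11.1% of all genes tested and 6.42% of the higher-expressed ones were called higher and 9.74% and 16.8% lower. In KO gel against WT gel they were 6.25% higher and 28.1% lower, against 7.12% and 4.03% called higher and 7.71% and 13.3% called lower. Man2b2, a lysosomal mannosidase gene, averaged 57.6 CPM in KO gel and 73.9 CPM in KO media (log2 fold change -0.36; edgeR adjusted p = 0.00371). Ctsh, the cathepsin H gene, was higher at low levels, 0.700 CPM in KO gel and 0.0870 CPM in KO media (log2 fold change 3.01; edgeR adjusted p = 0.000854). Smpd1, the acid sphingomyelinase, averaged 41.2 CPM in KO gel and 53.7 CPM in WT gel (log2 fold change -0.38; edgeR adjusted p = 0.00352). Galns, a sulfatase gene, and Pld4, an endolysosomal exonuclease gene, were also lower in KO gel than in WT gel, with log2 fold changes of -0.38 and -0.997. With total-count scaling this list had 4 higher and 6 lower in KO gel against KO media, but 3 higher and 1 lower in KO gel against WT gel. Without both libraries rich in loci like ribosomal RNA it had 2 higher and 5 lower, and 1 higher and 5 lower.

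Of 12 genes that sort enzymes to the lysosome, 4 (33.3%) fell in KO gel against KO media and none rose, against the 9.74% of all genes and 16.8% of the higher-expressed ones called lower. Gnptab, a subunit of the enzyme that makes the mannose 6-phosphate tag, averaged 130.5 CPM in KO gel and 168 CPM in KO media (log2 fold change -0.36; edgeR adjusted p = 0.0136). M6pr, a receptor for that tag, averaged 139 CPM and 167 CPM (log2 fold change -0.27; edgeR adjusted p = 0.0144), and Ap1m1, an adaptor subunit, 77.3 CPM and 90.02 CPM (log2 fold change -0.22; edgeR adjusted p = 0.0188). The fourth was the adaptor gene Gga2, named after its value was seen (log2 fold change -0.57). With total-count scaling 2 of these 12 were called lower, and without both libraries rich in loci like ribosomal RNA none was, with 4 at an unadjusted p under 0.05. In KO gel against WT gel only Gnptab of this list was called, lower by a log2 fold change of -0.33 (edgeR adjusted p = 0.0284). That was 8.33% of the 12, against 7.71% of all genes and 13.3% of the higher-expressed ones called lower.

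None of 16 subunits of the V-ATPase, the pump that acidifies lysosomes, was called in KO gel against KO media by edgeR, DESeq2 or limma-voom, with 2 at an unadjusted p under 0.05 in edgeR. In KO gel against WT gel, Atp6v0a1 was higher (1.73 CPM in KO gel and 0.617 CPM in WT gel) and Atp6v0a2 lower (119 CPM and 141 CPM). Each was 6.25% of the list, where 7.12% of all genes were called higher and 7.71% lower. For the higher-expressed genes the shares were 4.03% and 13.3%. Of 24 transporters and other membrane proteins, 3 (12.5%) fell in KO gel against KO media, a share between the 9.74% of all genes and the 16.8% of the higher-expressed ones called lower. Among them were Tmem192 and Litaf with log2 fold changes of -0.43 and -0.39, and Slc38a9, an amino acid sensor named after its value was seen, rose by 0.35 on the log2 scale. Tmem192 and Mcoln3, a cation channel gene, were lower in KO gel than in WT gel (log2 fold changes -0.45 and -0.73). They were 8.33% of the 24, a share between those of all genes and of the higher-expressed ones called lower there. Of 17 genes for Ragulator, Rag GTPases, folliculin and mTORC1, which sense nutrients at the lysosome, Lamtor1 and Lamtor5 fell (log2 fold changes -0.31 and -0.27) and Rptor rose (0.30) in KO gel against KO media. These were 11.8% lower and 5.88% higher, near or below the shares of all genes. Without both libraries rich in loci like ribosomal RNA, 1 transporter gene was lower and 1 gene of the nutrient-sensing list was called in each direction. Rptor was also higher in KO gel than in WT gel (log2 fold change 0.32, edgeR adjusted p = 0.0112), the only call of the 17 in that comparison (5.88%).

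Of 23 autophagy genes, 4 (17.4%) rose and 1 (4.35%) fell in KO gel against KO media, where 11.1% of all genes and 6.42% of the higher-expressed ones were called higher and 9.74% and 16.8% lower. Ulk1, the kinase that starts autophagosome formation, averaged 50.3 CPM in KO gel and 37.8 CPM in KO media (log2 fold change 0.41; edgeR adjusted p = 0.0139). Sqstm1, the cargo receptor p62, averaged 184 CPM in KO gel, 149.7 CPM in KO media, 151 CPM in WT gel and 144 CPM in WT media, and was called higher in KO gel against KO media (log2 fold change 0.30; edgeR adjusted p = 0.0162) and against WT gel (log2 fold change 0.29; edgeR adjusted p = 0.0238). Wipi1 rose by 0.68 on the log2 scale at about 2.15 CPM in KO gel. Nbr1 rose and Atg5 fell, both named after their values were seen, and Atg9a was lower in KO gel than in WT gel (log2 fold change -0.30). In KO gel against WT gel 1 of the 23 (4.35%) was higher and 1 (4.35%) lower, against 7.12% and 7.71% of all genes. Without both libraries rich in loci like ribosomal RNA, 1 autophagy gene was called in KO gel against KO media, higher, and no gene of the sorting, nutrient-sensing and autophagy lists in KO gel against WT gel, with 2, 3 and 2 of them at an unadjusted p under 0.05. In WT gel against WT media and in KO media against WT media no gene of these lists was called by edgeR or limma-voom, with 8 and 8 at an unadjusted p under 0.05 in edgeR, and DESeq2 called 1 further hydrolase in WT gel against WT media. Among TFEB's relatives Mitf was tested without a call.

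Split by the E-box core in their promoter windows, the 9 genes with it held 0 of the 3 calls in KO gel against KO media (median log2 fold change -0.15), and the 20 genes with a window but no core held 3 (median -0.03). In KO gel against WT gel, 3 of the 9, the Ctsa, Glb1 and Arsa shown above, were called lower (median -0.11), and of the 20 without the core 4 were called lower and 1 higher (median -0.16). Ctsb, without a window in the table, was the remaining call.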

How the data were processed

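Bulk RNA of 12 libraries was sequenced from 150 ng each, after PureLink extraction, RiboCop removal of ribosomal RNA and KAPA RNA HyperPrep preparation, per the labels' protocols. The authors deposited a table of raw counts per gene symbol, one column per library. Per the submitters' processing notes, the tools included HISAT2, SAMtools, Picard and featureCounts, with GRCm38 and mm10 named as builds; versions and strand setting: not given in the sources used here.

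From these counts, edgeR 4.0.16 in R 4.3.3 fitted all 12 libraries with one mean per group (filterByExpr, TMM scaling, robust quasi-likelihood F test, Benjamini-Hochberg adjustment over 19010 genes, threshold 0.05). CPM is the count per 1000000 of the TMM-scaled total, and SE is the log2 fold change divided by the root of F. Totals of 28483064 to 61390702 counts set the counting error. Pooled over genes, squared deviations between replicates were 13.2 to 171 times those of counting alone (chi-square per degree of freedom). This pooled measure does not describe single genes. Hexa, for example, had an SD of only 0.194 CPM around a mean of 22.2 CPM in KO gel. That is less than the error of counting its 843, 880 and 896 reads, so these 3 libraries understate its spread. The labels do not tie libraries of different groups to the same mouse, so p-values measure the spread between these libraries. Samples were grouped by the genotype and culture in their labels, and 5 comparisons were made, the interaction included.

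Alternatives were total-count scaling, RLE factors, DESeq2 1.42.0, limma-voom (limma 3.58.1), no filter beyond 1 count, only genes averaging a log2 CPM of 3 or more, only the 2 groups compared, a replicate block, leaving out each library, and leaving out both libraries rich in loci like ribosomal RNA. The fit was also run on simulated data with planted changes balanced between directions. Those changes were larger than most differences reported here, so that run does not show how well the smaller ones are found. Gene positions and exon lengths came from GENCODE M21 (GRCm38), and promoters from RefSeq (GRCm38.p6).

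The genes and lists, and the lists of markers for CD8 T cells, macrophages and dendritic cells, B cells, CD4 and regulatory T cells, stromal cells, neutrophils with mast cells, γδ T with NK cells, and platelets with erythroid cells, were chosen with earlier results of these data known. Named in each comparison were the called lysosomal genes, up to the 10 with the smallest p, or else the 3 with the smallest p, with Lamp1, Ctsd, Tfeb, Tfe3 and Dock8 always, and up to 3 genes of each further list with calls. Others named were chosen after their values were seen. Some genes that this rule names are not reported here.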

Additional observations from a re-analysis of the deposited data

Results flagged for a closer look

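For 3 genes the response to collagen differed between KO and WT cells by the test of the interaction itself. They were 2 of the 32 genes (6.25%) and 1 of 125 tested genes of the further lists, all with the lower response in KO cells. Of all genes tested 1.45% were called in that direction, and 2.66% of those averaging a log2 CPM of 3 or more. For Grn the log2 response was 0.45 lower in KO cells than in WT cells (-0.45 ± 0.10 SE; edgeR adjusted p = 0.031). All 3 KO gel libraries lay below all KO media libraries, and the WT gel and WT media libraries overlapped. For Arsb the difference was -0.81 ± 0.19 (SE; edgeR adjusted p = 0.0365), with all KO gel libraries below all KO media libraries and overlap in WT cells. For Smpd1, the acid sphingomyelinase, it was -0.43 ± 0.10 (SE; edgeR adjusted p = 0.0369). Smpd1 averaged 41.2 CPM in KO gel and 52.3 CPM in KO media, and 53.7 CPM in WT gel and 50.7 CPM in WT media. None of the 3 was called with total-count scaling or without both libraries rich in loci like ribosomal RNA.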

How the results depend on the processing

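Counts of called lysosomal genes depended on the processing as follows. For most alternatives the share of all genes called is not given here. A higher count therefore does not show more calls among these genes than among all genes. In KO gel against KO media (3), DESeq2 gave 5, no filter beyond 1 count gave 9, only the 2 groups compared gave 11 and the replicate block gave 14, and leaving out single libraries gave 3 to 10. These calls were lower, except that Ctsl was called higher with only the 2 groups compared, with the replicate block and without WT media 1. Ctsl was also called higher with only genes averaging a log2 CPM of 3 or more. In WT gel against WT media the count was 0 under all 21 alternatives. In KO media against WT media (0) it was 1 with no filter and 0 without any single library. In KO gel against WT gel (9), total-count scaling gave 2, the restriction to genes averaging a log2 CPM of 3 or more gave 3, leaving out both libraries rich in loci like ribosomal RNA gave 3, and leaving out single libraries gave 1 to 9. The 3 calls under the restriction were Glb1 and Arsa, lower, and Lamp2, higher (log2 fold change 0.32; edgeR adjusted p = 0.0407). Lamp2 was also called higher with only the 2 groups compared (edgeR adjusted p = 0.0362). In the interaction (2), total-count scaling, that restriction and leaving out both libraries each gave 0, the replicate block gave 9, and leaving out single libraries gave 0 to 4; a fit of only 2 groups cannot hold the interaction. Reversed in sign were Ctsd in KO gel against KO media with the restriction (0.014) and Lamp1 in KO gel against WT gel with total counts (0.0059), neither called. Total-count scaling turned the split of all genes called in KO gel against WT gel to 1875 higher and 407 lower, against 1354 and 1465 with TMM, and in KO gel against KO media to 2007 and 869, against 2111 and 1851. Dock8 was called lower in KO cells under every alternative. Over the 26 named gene results, 456 of 543 alternatives kept direction and side of the threshold, 78 lost the call and 7 gained one. The 456 include results not called in the main fit, which could not lose a call. In KO gel against KO media the call was lost under 0 of 21 alternatives for Arsb and Hexa and 1 for Grn. In KO gel against WT gel it was lost under 2 of 21 for Arsa and 11 for Arsb. In the interaction it was lost under 10 of 20 for Grn and 12 for Arsb. The cause was not tested. Same-numbered libraries did not deviate together in every pair of any comparison over all genes tested (correlations -0.192 to 0.506), so they are taken to share only a number. Over genes averaging a log2 CPM of 3 or more, every pair was above 0.1 for WT gel with WT media (0.784, 0.237 and 0.793) and KO media with WT media (0.21, 0.161 and 0.379), with 6 of 6 libraries best with their own number, but not for KO gel with KO media (-0.0448, 0.168 and 0.18) or KO gel with WT gel (-0.419, 0.139 and 0.142), so a pairing of mice remains possible. Over all genes tested, 5, 5, 4 and 2 of 6 libraries correlated best with their own number. The replicate block left the count in KO gel against WT gel at 9.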
